A study of Mus musculus with 172 samples.

Results

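The MAP kinase phosphatases *Dusp1*, *Dusp4*, *Dusp5* and *Dusp6*, the Sprouty genes *Spry2* and *Spry4* and the Sprouty-related genes *Spred1* and *Spred2* were followed across a panel of recombinant inbred mice after sleep deprivation. These 8 genes were chosen by name, with earlier results of these data known. The paper had already listed *Dusp1*, *Dusp4*, *Dusp5* and *Spry4* among the genes most affected by sleep deprivation in cortex. All 8 chosen genes are listed both among the 14896 genes measured in cerebral cortex and among the 14107 measured in liver. mRNA was sequenced from adult male mice of 33 BXD/RwwJ lines (inbred mosaics of the genomes of C57BL/6J, B6, and DBA/2J, D2), of the parental strains B6 and D2 and of the reciprocal F1 hybrids (BD-F1 and DB-F1). In the SD condition mice were kept awake for 6 h from light onset by gentle handling, and in the control condition (Ctr) they were not sleep deprived, and both were killed at ZT6, 6 h after light onset. Each library was made from the pooled RNA of mice of 1 line, tissue and condition, and each parental strain gave 2 pools, so that 39 pools were compared with 39 in each tissue. For BXD79, BXD85 and BXD101 fewer mice were available, and their number per library is not given in the sources used here. A library of BXD85 or BXD101 may come from 1 mouse. A further 16 libraries of 4 BXD/TyJ lines (BXD05, BXD29, BXD29t and BXD32) were kept apart. Because the mice of a line were pooled, the spread between mice of 1 line was not measured. The error given throughout is mainly the spread between pools of different genotypes. Only B6 and D2, with 2 pools each, show how far pools of 1 strain differed.

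Growth factors, neurotrophins and synaptic activity drive the Ras-Raf-MEK-ERK cascade, in which the kinase ERK enters the nucleus and switches on early genes such as *Fos* and *Egr1*. The same signal also switches on its own inhibitors. MAP kinase phosphatases remove the phosphates from ERK and its relatives JNK and p38: *Dusp1*, *Dusp4* and *Dusp5* encode nuclear enzymes, *Dusp6* a cytoplasmic one, and *Dusp5* and *Dusp6* act chiefly on ERK. Sprouty proteins restrain signalling between receptor tyrosine kinases and Raf, and SPRED proteins bring the Ras GTPase-activating protein neurofibromin to the membrane.

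The promoters are shown first because *Dusp1* and *Dusp5* hold, close to the start site, the motifs that early genes are known for. RefSeq sequences (GRCm38.p6) from 250 bases before to 50 bases after the start site were found for 6 of the 8 genes, all but *Dusp4* and *Spry4*. Capitals mark matches on either strand to a cAMP response element, bound by CREB, or to the short element TGACG that forms its core, and to the CArG box, bound by serum response factor. The *Dusp1* promoter lies on the minus strand at chr17:26508423-26508722, and that of *Dusp5* on the plus strand at chr19:53528895-53529194.
Dusp1: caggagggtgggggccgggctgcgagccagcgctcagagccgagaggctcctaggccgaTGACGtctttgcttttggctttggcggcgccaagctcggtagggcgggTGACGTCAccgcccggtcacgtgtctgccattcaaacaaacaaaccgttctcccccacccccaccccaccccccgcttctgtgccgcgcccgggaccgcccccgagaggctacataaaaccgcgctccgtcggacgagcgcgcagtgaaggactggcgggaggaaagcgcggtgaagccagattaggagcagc
Dusp5: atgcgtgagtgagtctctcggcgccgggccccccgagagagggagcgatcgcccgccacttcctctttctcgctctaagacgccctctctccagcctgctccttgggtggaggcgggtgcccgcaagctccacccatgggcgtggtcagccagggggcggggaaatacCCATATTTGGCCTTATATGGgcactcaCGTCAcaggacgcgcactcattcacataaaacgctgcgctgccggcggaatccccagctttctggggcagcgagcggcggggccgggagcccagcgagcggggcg

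In the *Dusp1* promoter the full element TGACGTCA stands from -143 to -136, counted from the start site, and a short element TGACG stands apart from it from -191 to -187. The short element is part of the full one, so every full element also counts as a short element on each strand. In the *Dusp5* promoter 2 CArG boxes lie end to end from -82 to -63, followed by a short element on the minus strand from -55 to -51. Of 32851 promoters of this length, 1.79% hold the full element, 20.8% the short element and 1.63% a CArG box. Among the 6 promoters found, 1 held the full element, 3 held the short element (*Dusp1*, *Dusp5* and *Spred2*), and 1 held a CArG box. The ETS letters CCGGAA occurred in 1, at 34 to 39 after the start of *Spry2*, against 14.9% of all promoters. The AP-1 letters TGANTCA (7.81% of promoters), the EGR letters GCGNGGGCG (5.55%) and the palindromic glucocorticoid response element (0.00913%) occurred in none of the 6. These are matches of letters, and binding was not measured.

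Levels are log2 CPM (reads scaled to the size of the library, on a log2 scale), and a change is the SD pool minus the Ctr pool of the same line. In cortex the 2 Ctr pools of B6 differed by 0.05 (*Spry4*) to 0.57 (*Dusp1*), and those of D2 by 0.02 (*Dusp4*) to 0.63 (*Dusp1*). The standard deviation of all 39 Ctr pools was 0.12 (*Spred1*) to 0.36 (*Dusp4*). In liver the gaps were 0.02 (*Dusp1*) to 0.81 (*Spry2*) in B6 and 0.02 (*Spred1*) to 0.68 (*Dusp5*) in D2. The standard deviations there were 0.18 (*Spred1*) to 1.01 (*Dusp4*). Differences between single pools therefore also hold spread within a strain. Cortex libraries held from 18995492 to 28998853 reads and liver libraries from 4681101 to 8269401, and no pool was without reads for any of the 8 genes. In liver the gene with the most reads for its length, *Alb*, had 1.78 reads per exonic base, against 43.4 for the densest gene in cortex, *2900097C17Rik*. The 8 genes had from 0.00241 (*Dusp5*) to 0.160 (*Dusp6*) reads per exonic base in liver and from 0.0541 (*Dusp5*) to 0.992 (*Spred1*) in cortex, and levels were not compared between the tissues. Whether reads at the same position had been collapsed in the liver libraries is not given in the sources used here and was not tested. Collapsed reads would cap the counts of dense genes such as *Alb*, so liver levels, folds and tissue differences carry this limit. Of the marker genes fixed for cell types, 6 of 6 neuron markers were listed in cortex and 6 of 6 hepatocyte markers in liver. Neuron markers *Snap25*, *Slc17a7*, *Gad1* and *Gad2* were not listed in liver, and Kupffer and B cell markers were not listed in cortex. The other 2 neuron markers were listed in liver, and 1 of them fell after SD (limma adjusted p under 0.05). Their sum there ran from 45.3 through a median of 68.0 to 113 CPM in Ctr and from 22.4 through 38.2 to 55.1 CPM in SD pools.

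Sleep deprivation raised all 8 genes in cortex. All 8 passed the test upward (limma, Benjamini-Hochberg adjusted p under 0.05), where 68.4% of the listed genes passed in either direction and 33.0% upward. Their median log2 fold change was 1.13, against -0.01 over all genes. The 8 were chosen with earlier results of these data known, so these shares describe them and are no test of the set. The 4 phosphatases and *Spry4* rose by 2.16-fold to 2.83-fold, and *Spry2*, *Spred1* and *Spred2* by 1.46-fold to 1.49-fold. Every SD pool lay above every Ctr pool for 4 of the 8 (*Dusp6*, *Spry2*, *Spry4* and *Spred1*), against 1.01% of all genes. In 38 of 39 lines all 8 were higher in the SD pool, and in the other, BXD89, 7 were.

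Among the nuclear phosphatases, *Dusp4* (mm9 chr8:35870351-35882948, plus strand) showed the largest rise. In cortex its Ctr pools ran from 2.12 (BXD48) through a median of 2.94 to 3.85 (BXD56) log2 CPM, and its SD pools from 3.83 (BXD98) through 4.38 to 4.89 (BXD51). The groups met only at their edges, with 38 of 39 SD pools above every Ctr pool. The change was 1.50 (standard error 0.0671, limma adjusted p = 4.6e-34, higher in 39 of 39 lines), from 0.36 in BXD56 to 2.26 in BXD48, and it ranked 27th of 14896 genes by size.

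*Dusp5* (chr19:53603599-53616921, plus strand) was the least abundant of the 8 for its length. Its Ctr pools had 1.35 (BXD73b), 1.70 and 2.98 (BXD65a) log2 CPM as lowest, median and highest, and its SD pools 2.48 (BXD64), 3.06 and 3.47 (BXD50). One Ctr pool, BXD65a, stood far above the rest, so that 21 of 39 SD pools lay above every Ctr pool, although each SD pool was above its own Ctr pool. *Dusp5* rose by 1.28 (standard error 0.0607, limma adjusted p = 2.0e-32), from 0.09 in BXD65a to 1.95 in BXD100.

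*Dusp1* (chr17:26642535-26645464, minus strand), an immediate-early phosphatase with a broad choice of MAP kinases, ran from 3.99 (BXD73b) through 4.49 to 5.22 (BXD89) log2 CPM in Ctr and from 5.21 (BXD89) through 5.63 to 6.07 (BXD44) in SD pools. The highest Ctr and the lowest SD pool belonged to the same line, BXD89, and without that line the groups did not overlap. The rise was 1.15 (standard error 0.0562, limma adjusted p = 1.6e-31, 38 of 39 lines), with -0.02 in BXD89 and 1.84 in BXD95 at the ends.

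*Dusp6* (chr10:98725865-98730122, plus strand), the cytoplasmic ERK phosphatase, had Ctr levels of 5.42 (BXD43), 5.74 and 6.33 (BXD89) and SD levels of 6.46 (BXD98), 6.86 and 7.19 (BXD44) log2 CPM. The groups were fully apart. It rose by 1.11 (standard error 0.0452, limma adjusted p = 1.2e-36, 39 of 39 lines), from 0.28 in BXD89 to 1.67 in BXD67.

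*Spry4* (chr18:38745922-38760922, minus strand) moved with the phosphatases in size, and its Sprouty relative *Spry2* (chr14:106291166-106296036, minus strand) less. Ctr pools of *Spry4* lay at 3.15 (BXD75), 3.57 and 4.06 (BXD89) log2 CPM and SD pools at 4.33 (BXD89), 4.76 and 5.04 (BXD44), with no overlap. The change was 1.17 (standard error 0.0407, limma adjusted p = 3.9e-41), from 0.27 in BXD89 to 1.68 in BXD64. For *Spry2* the Ctr pools had 5.20 (BXD95), 5.44 and 5.71 (BXD73b) and the SD pools 5.77 (BXD98), 6.02 and 6.28 (BXD67) log2 CPM, again with no overlap. The change was 0.58 (standard error 0.0302, limma adjusted p = 9.0e-30), from 0.15 in BXD89 to 0.80 in BXD48a.

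The SPRED genes *Spred1* (chr2:116947110-117008015, plus strand) and *Spred2* (chr11:19824378-19924029, plus strand) rose by nearly the same amount. *Spred1* had 7.54 (BXD90), 7.90 and 8.15 (BXD101) log2 CPM in Ctr and 8.15 (BXD45), 8.47 and 8.66 (BXD61) in SD pools, and the lowest SD pool lay just above the highest Ctr pool. Its change was 0.55 (standard error 0.0255, limma adjusted p = 3.8e-33), from 0.15 in BXD89 to 0.91 in BXD90. *Spred2* had 5.57 (BXD90), 6.25 and 6.60 (BXD101) in Ctr and 6.42 (BXD98), 6.78 and 7.00 (BXD79) log2 CPM in SD pools, with 36 of 39 SD pools above every Ctr pool. Its change was 0.55 (standard error 0.0345, limma adjusted p = 5.3e-25), from 0.23 in BXD101 to 1.17 in BXD90. Both genes were higher in the SD pool of 39 of 39 lines, as 6.48% of all genes were.

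**Figure D1:**
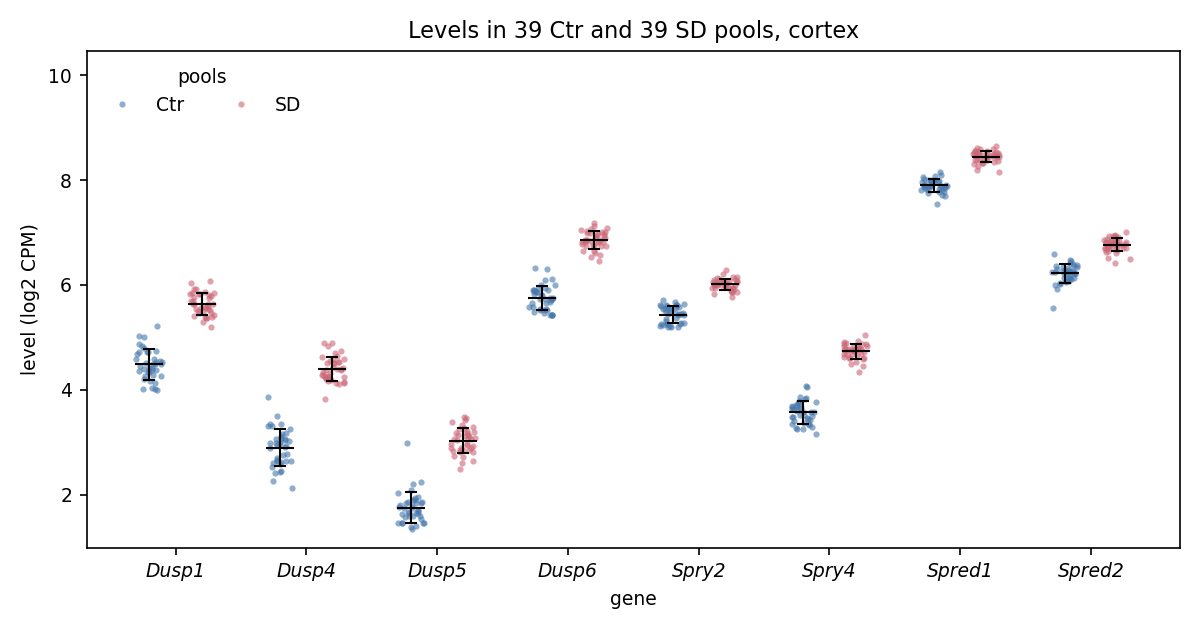
Level in cortex (log2 CPM) of the 8 genes in 39 Ctr and 39 SD pools, 1 point a pool, with the mean and SD of each group. For *Dusp6*, *Spry2*, *Spry4* and *Spred1* the lowest SD pool is above the highest Ctr pool.

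Markers of cell types were set beside these changes. The summed level of 5 astrocyte markers ran from 996 through a median of 1155 to 1651 CPM in Ctr and from 1068 through 1193 to 1362 CPM in SD pools, and 2 of the 5 rose. The 6 neuron markers summed to 7848 through 8452 to 8890 CPM in Ctr and 7631 through 8020 to 8566 CPM in SD pools, with 1 up and 3 down. Endothelial markers (5) gave 1 up and 3 down and sums of 105 through 123 to 169 CPM in Ctr and 98.1 through 116 to 144 CPM in SD pools, oligodendrocyte markers (5) 1 up and 2 down, and microglia markers (5) 2 up and 1 down. Their part in the changes was not tested. In such bulk samples, fewer cells of a type and less RNA per cell cannot be told apart.

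The pools also drew closer together under SD. Between-pool SDs in cortex were lower among SD than among Ctr pools for 8 of 8 genes, with a median ratio of 0.708 (0.644 to 0.927), where 57.3% of all genes had the lower SD among SD pools and the median ratio was 0.967. In liver this held for 4 of 8, with a median ratio of 1.01 against 1.14 over all genes, of which 27.0% had it. No test was made of these ratios.

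Ordered by the size of the rise in cortex, neighbouring genes were compared over 37 strains, with the pools of a parental strain averaged (2-sided sign-flip permutation test, 100000 resamples, adjusted over 7 pairs). The order came from these same changes, so the pairs and the sign of each difference were set by the data tested. The permutation p does not allow for this. *Dusp4* rose by 0.22 more than *Dusp5* (95% interval 0.10 to 0.34, more in 30 of 37 strains, permutation adjusted p = 0.0022). *Dusp6* rose by 0.53 more than *Spry2* (0.47 to 0.60, more in 37 of 37 strains, adjusted p = 7e-05 from the smallest permutation p possible, 1e-05). This second step, the widest of the 7, lies between the phosphatases with *Spry4* and *Spry2* with the SPRED genes. The other 5 pairs missed the threshold: *Dusp5* against *Spry4* differed by 0.11 (0.01 to 0.22, permutation adjusted p = 0.0924), and the other four differences were 0.00 to 0.04. In liver 0 of 7 neighbouring pairs passed, and 0 at an unadjusted p under 0.05 (lowest permutation p = 0.0623). Under alternative settings the lowest unadjusted permutation p was 0.0257, and 0 pairs passed after adjustment. Most of these pairs include *Dusp4*, *Dusp5* or *Spry2*, which had few reads in liver, so differences there could be missed.

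Sleep deprivation raised 6 of the 8 genes in liver (limma, adjusted p under 0.05), where 44.2% of listed genes passed in either direction and 21.5% upward. The call of 1 of the 6, *Dusp4*, depended on which lines entered the unpaired fit. Their median log2 fold change over all 8 was 0.30, against -0.00 over all genes. The groups overlapped for all 8, and 0.0567% of all genes had every SD pool above every Ctr pool. All 8 were higher in the SD pool in 8 of 39 lines, with a median of 7 genes a line and a lowest of 4, in 3 lines (B6-1, BXD45 and BXD70).

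*Dusp1* changed most in liver. Its Ctr pools lay at 4.27 (BXD101), 4.89 and 5.71 (BXD81) and its SD pools at 4.59 (BXD71), 5.60 and 6.64 (BXD87) log2 CPM, so the groups overlapped widely. It rose by 0.65 (standard error 0.0835, limma adjusted p = 4.2e-10, 35 of 39 lines), or 1.57-fold, from -0.19 in BXD85 to 1.77 in BXD87. *Spred1* rose in every line: its Ctr pools had 5.49 (BXD67), 5.97 and 6.28 (BXD98) and its SD pools 5.86 (BXD70), 6.37 and 6.64 (BXD71) log2 CPM. The change was 0.39 (standard error 0.0409, limma adjusted p = 2.5e-13), from 0.05 in BXD70 to 0.83 in BXD48a, and 1.02% of all genes were higher in every line.

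*Dusp6*, *Spry4* and *Spred2* rose by smaller amounts. *Dusp6* went from 5.45 (BXD65a), 5.93 and 6.32 (BXD101) log2 CPM in Ctr to 5.57 (BXD67), 6.20 and 6.51 (BD-F1) in SD pools, a rise of 0.29 (standard error 0.0523, limma adjusted p = 3.4e-06, 32 of 39 lines). *Spry4* went from 4.11 (BXD71), 4.77 and 5.38 (B6-1) to 5.04 as median, with 4.40 (BXD44) and 5.60 (BXD89) at the ends, a rise of 0.30 (standard error 0.0741, limma adjusted p = 5.6e-04, 29 of 39 lines). In both, most SD pools stayed within the range of the Ctr pools, with 10 above every Ctr pool for *Dusp6* and 6 for *Spry4*.

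*Spred2* had 1 SD pool far below the rest. Its Ctr pools lay at 4.22 (BXD64), 4.64 and 5.05 (BXD87) log2 CPM and its SD pools at 2.56 (BXD70), 4.91 and 5.38 (BXD87). The change was 0.26 (standard error 0.0771, limma adjusted p = 0.00353, 34 of 39 lines), with -1.94 in BXD70. The SD library of BXD70 was the shallowest in liver (4681101 reads, against 5390486 or more in the other SD libraries) and the least like its group (r = 0.945 with the group median across genes, next 0.975). It had 27 reads of *Spred2* and no reads for 380 listed genes, against 86 to 288 in the others. Without BXD70 the change of *Spred2* was 0.32 (limma adjusted p = 9.86e-08), and the other lines ranged from -0.39 to 0.79.

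The remaining 3 genes were counted on few reads in liver. *Dusp4* had 5 to 65 reads in Ctr and 7 to 118 in SD pools, and the change was 0.56 (standard error 0.231, limma adjusted p = 0.0411, 35 of 39 lines). Its call was lost in the 33 BXD/RwwJ lines alone (limma adjusted p = 0.0741) and without any of 6 single lines, whereas with the line as a block, which takes out the wide spread between lines, the limma adjusted p was 4.9e-07. *Spry2* had 9 to 44 reads in Ctr and 10 to 44 in SD pools, and its change of 0.11 (95% interval -0.07 to 0.28, limma adjusted p = 0.334, 22 of 39 lines) did not pass. *Dusp5* had 1 to 13 and 1 to 16 reads, and its change of 0.31 (-0.06 to 0.67, limma adjusted p = 0.181, 28 of 39 lines) did not pass either. Counting alone gives the change of a line an SD of 0.512 for *Dusp4*, 0.445 for *Spry2* and 1.12 for *Dusp5*, close to the observed SDs of 0.536, 0.483 and 1.05, so changes of single lines in these genes were not resolved at this depth.

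**Figure D2:**
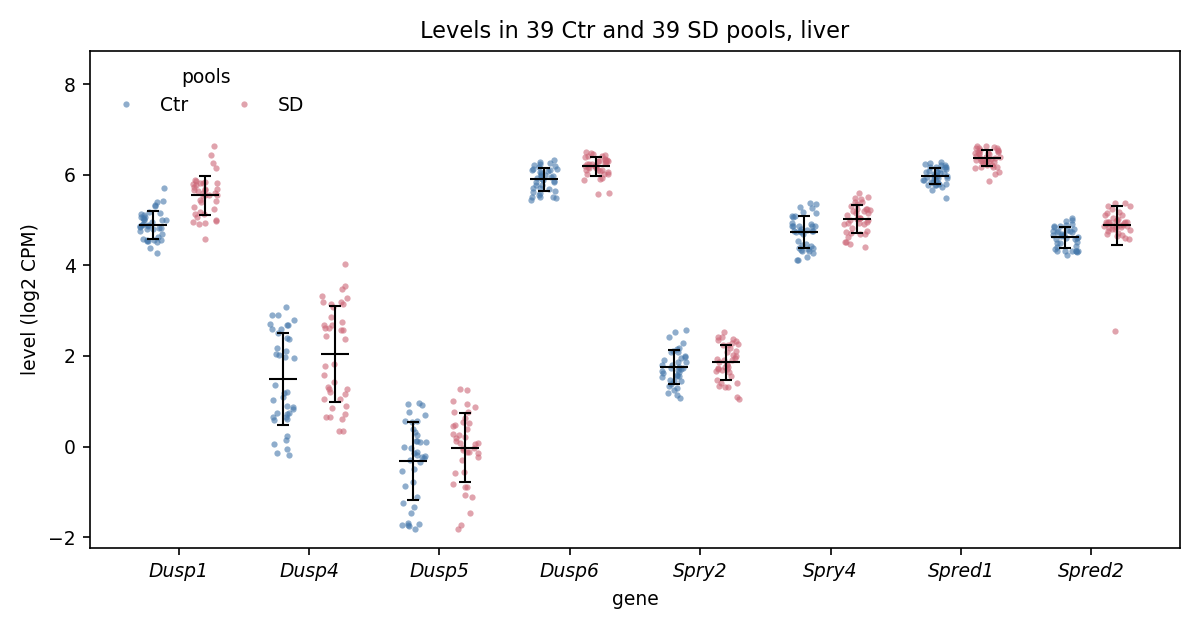
Level in liver (log2 CPM) of the 8 genes in 39 Ctr and 39 SD pools, 1 point a pool, with the mean and SD of each group. The groups overlap for all 8, and the lowest *Spred2* pool (2.56) is BXD70.

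Of 6 hepatocyte markers in liver 0 passed the limma test and 0 had an unadjusted p under 0.05, but *Alb* among them is the densest gene in liver, where a limit on dense genes would hide a change. Their sum ran from 1390 through a median of 1687 to 2369 CPM in Ctr and from 1392 through 1753 to 2359 CPM in SD pools. B cell markers fell, with 5 of 5 listed markers lower after SD and sums of 7.32 through 14.3 to 29.0 CPM in Ctr and 2.60 through 5.81 to 13.9 CPM in SD pools. Of 5 markers each, Kupffer cells and cholangiocytes had 0 up and 1 down, endothelium 1 up and 2 down, and stellate cells 1 up and 1 down. The part of these shifts in the changes of the 8 genes was not tested.

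For all 8 genes the change was lower in liver than in cortex (limma on the liver change less the cortex change, taken line by line). Of the 12695 genes listed in both tissues 57.6% passed in either direction and 29.6% in this one. The gap was largest for *Dusp5* at -0.97 (standard error 0.169, limma adjusted p = 3.7e-06, lower in liver in 34 of 39 lines), *Dusp4* at -0.94 (0.111, 9.1e-10, 36 lines), *Spry4* at -0.87 (0.0815, 2.5e-12, 38 lines) and *Dusp6* at -0.82 (0.0635, 8.5e-15, 38 lines). It was smallest for *Spred1* at -0.16 (0.0308, limma adjusted p = 1.8e-05, 31 lines). *Dusp1* (-0.50), *Spry2* (-0.47) and *Spred2* (-0.29) lay between. The order of these gaps was not tested. *Dusp5*, with 1 to 13 reads in liver Ctr and 1 to 16 in SD pools, had the largest standard error. With 5 reads added before the logarithm in place of about 1, its mean liver change over 37 strains was 0.19 and not 0.34. Its gap ran from -1.07 to -0.89 over the alternatives.

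**Figure D3:**
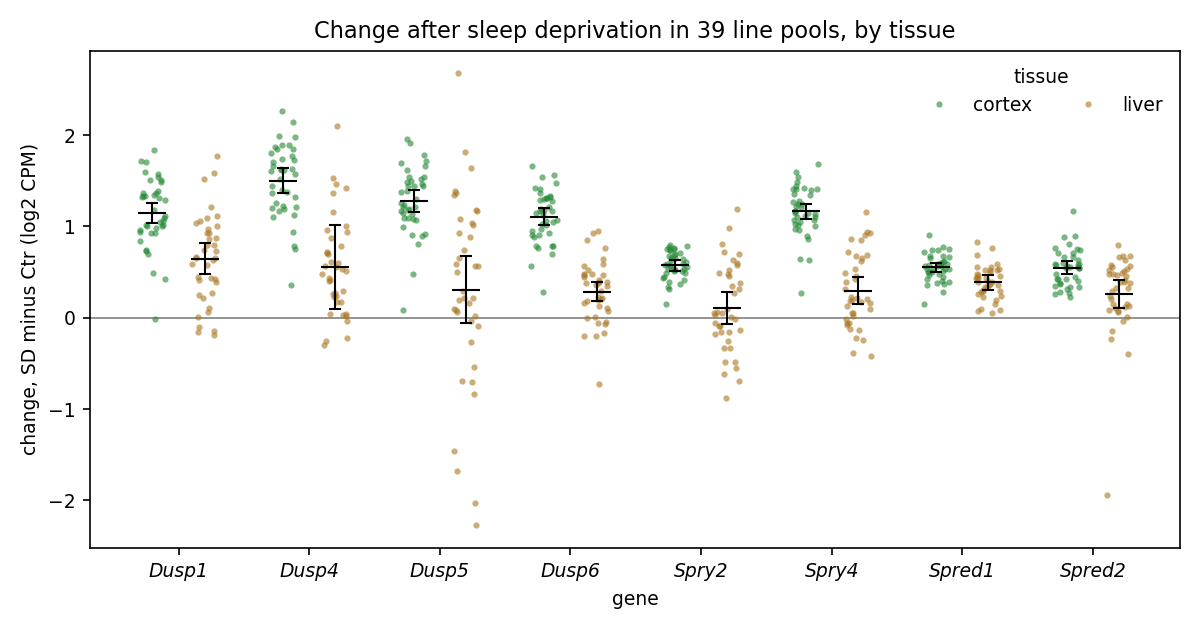
Change (SD minus Ctr, log2 CPM) of each gene in each of 39 lines in cortex and in liver, 1 point a line, with the mean and its 95% interval. The interval is from the unpaired limma fit, whose error holds the spread between lines and not that of the plotted changes. Cortex changes lie above 0 for all but *Dusp1* in BXD89, whereas liver changes straddle 0 for all but *Spred1*, and the lowest *Spred2* point in liver (-1.94) is BXD70.

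Per exonic length the genes kept much the same order in both conditions of cortex. *Spred1* was highest at 5.14 log2 CPM per exonic kb in Ctr and 5.69 in SD pools, and *Dusp5* lowest at 0.44 and 1.72. *Spry2* (4.38) and *Dusp6* (4.27) were close in Ctr, *Spry2* being the higher in 27 of 39 pools, and *Dusp6* (5.38) was the higher of the pair on average in SD (*Spry2* 4.95). *Dusp4* (1.44) and *Spry4* (1.37) were also not parted by the spread in Ctr, where *Dusp4* was the higher in 24 of 39 pools. In liver *Dusp6* led at 4.41 in Ctr and 4.70 in SD pools, followed by *Dusp1* (3.47 and 4.11) and *Spred1* (3.21 and 3.60). *Spry2* (0.70), *Dusp4* (0.03) and *Dusp5* (-1.63) stood last in Ctr, and *Spry2* was above *Dusp4* in only 25 of 39 Ctr and 21 of 39 SD pools.

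Across strains the cortex changes of the 8 genes went together. The 37 strains were taken as independent, here and in the other tests across strains. Among them BXD48 and BXD48a, BXD65 and BXD65a, and BXD73 and BXD73b are related by name, and the 2 F1 hybrids share both parental strains. Over 37 strains all 28 pairs had a positive Pearson's r, from 0.15 to 0.75 with a median of 0.58, and 26 passed a permutation test (100000 resamples, adjusted p under 0.05 over 28 pairs), or 24 by Spearman's rho. The lowest r that passed was 0.37, which 6.61% of the pairs of all 14749 genes reached, and 22.3% of the pairs of the 478 genes that rose with a log2 fold change of at least 0.5, whose median r was 0.20. The changes of 2 genes in a strain come from the same pair of libraries, so they share its errors. The highest were *Dusp6* and *Spry2* (r = 0.75, rho = 0.67, permutation adjusted p = 4.67e-05 for r, r = 0.63 without the 2 strains farthest from the median) and *Dusp4* and *Spred2* (r = 0.73, rho = 0.81, permutation adjusted p = 4.67e-05 for r, r = 0.75 without 2 strains). The pairs that missed the threshold by r were *Dusp1* with *Spred2* (r = 0.15, permutation adjusted p = 0.362) and *Dusp1* with *Dusp4* (r = 0.29, permutation adjusted p = 0.086).

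In liver 5 of 28 pairs passed by r and 3 by rho, with a median r of 0.12, and 7.75% of the pairs of all genes reached the lowest r that passed, 0.43. *Dusp6* and *Spry4* had r = 0.56 (rho = 0.58, permutation adjusted p = 0.00896 for r, r = 0.53 without the 2 farthest strains), and *Spred1* and *Spred2* r = 0.51 (rho = 0.47, permutation adjusted p = 0.0104 for r, r = 0.50 without 2). Pairs of *Dusp5* with *Spred2* (r = 0.49) and *Spred1* (r = 0.45) rested in part on BXD70: without that line, added after the data were seen, their r was 0.33 and 0.37, and 3 of 28 pairs passed. Between the change of a gene in cortex and its change in liver no relation passed: r ran from -0.21 to 0.28 over 8 genes, with 0 adjusted and 0 unadjusted permutation p under 0.05 and a lowest unadjusted p of 0.093. For *Dusp4*, *Dusp5* and *Spry2* liver changes of single lines were not resolved at this depth, so the test could not decide for these genes.

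**Figure D4:**
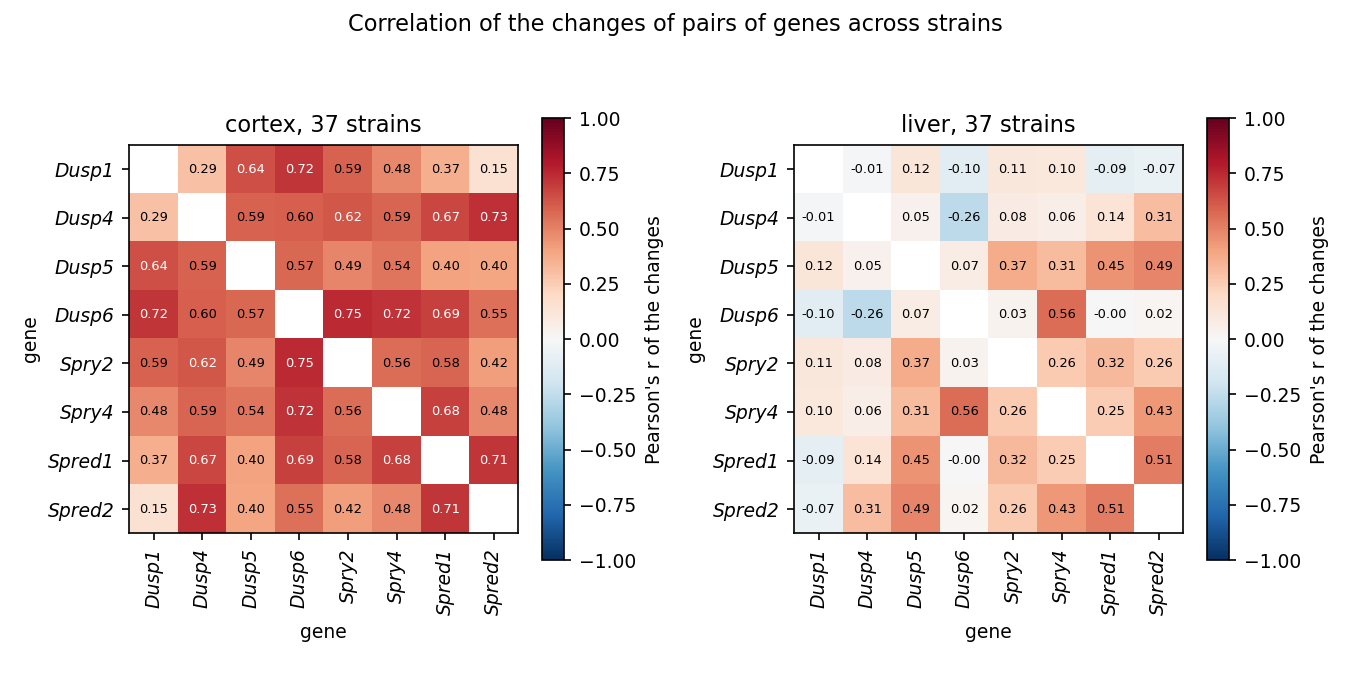
Pearson's r across 37 strains between the changes (SD minus Ctr) of each pair of genes in cortex and in liver, on a colour scale from -1 to 1. All 28 cortex pairs are positive (0.15 to 0.75), and liver pairs run from -0.26 to 0.56.

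A line that stood at the end of many cortex distributions was BXD89. Its Ctr pool was among the 5 highest for 7 of 8 genes and the highest of 39 for 3, its SD pool was among the 5 lowest for 8 of 8, and its change was the lowest of all lines for 5. The median change of the 8 genes there was 0.27, against 1.08 for the median line. Of 14 ERK-induced transcripts fixed as a list, 7 also had their lowest change in BXD89, with a median of 0.16 against 0.54. BXD89 stood at the end for many other genes too: of the 489 genes that rose in cortex with a log2 fold change of at least 0.5, 40.3% had their lowest change there, 50.5% had its Ctr pool among the 5 highest and 52.6% its SD pool among the 5 lowest. Over all genes these shares were 5.68%, 14.1% and 14.0%. Without BXD89, left out after the data were seen, 23 of 28 cortex pairs passed, and *Dusp1* with *Spry4* (r = 0.27), *Dusp1* with *Spred1* (0.16) and *Dusp5* with *Spred1* (0.28) did not.

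The Ctr level of a strain was then set against its SD level. In cortex, of 8 genes over 37 strains, *Spry2* passed (r = 0.46, rho = 0.46, permutation adjusted p = 0.033 over 8 genes, r = 0.43 without the 2 farthest strains), and the other 7 had r from -0.18 to 0.19. In liver *Spred1* passed (r = 0.51, rho = 0.53, permutation adjusted p = 0.00508, r = 0.48 without 2), as did *Dusp4* (r = 0.87, rho = 0.84, permutation adjusted p = 8e-05, r = 0.85 without 2). The others had r from -0.04 to 0.31. For *Dusp4* the strains on either side of the widest gap between Ctr levels are given separately in the next paragraph.

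For *Dusp4* in liver the spread between lines was wider than the mean change after SD. Ctr pools ran from -0.19 (BXD71) through 1.21 to 3.08 (BXD81) log2 CPM and SD pools from 0.34 (BXD79) through 2.37 to 4.02 (BXD81), with SDs of 1.01 and 1.06. Among the Ctr pools 16 were under 1, 16 over 2 and 7 between, and the widest gap between neighbouring pools, 0.58, lay between BXD55 (1.37) and BXD90 (1.95). Within the 20 strains below that gap the Ctr and SD levels had r = 0.56 (rho = 0.51), and within the 17 above it r = 0.64 (rho = 0.58). The mean change was 0.64 ± 0.627 (SD) below and 0.46 ± 0.388 above the gap, a split made after the values were seen and not tested. The B6 pools had 2.91 and 2.38 in Ctr and 3.18 and 3.53 in SD, and the D2 pools 0.61 and 0.65 in Ctr and 0.66 and 1.43 in SD. D2 was thus lower than B6 by 2.01 in Ctr and 2.31 in SD on the log2 scale, and the F1 pools lay between the parental means in Ctr (BD-F1 2.01, DB-F1 1.21) and in SD (1.79 and 2.63). With 2 pools of each strain this is a description. In cortex the parents were alike, with 2.69 and 2.98 in one strain and 2.96 and 2.98 in the other.

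**Figure D5:**
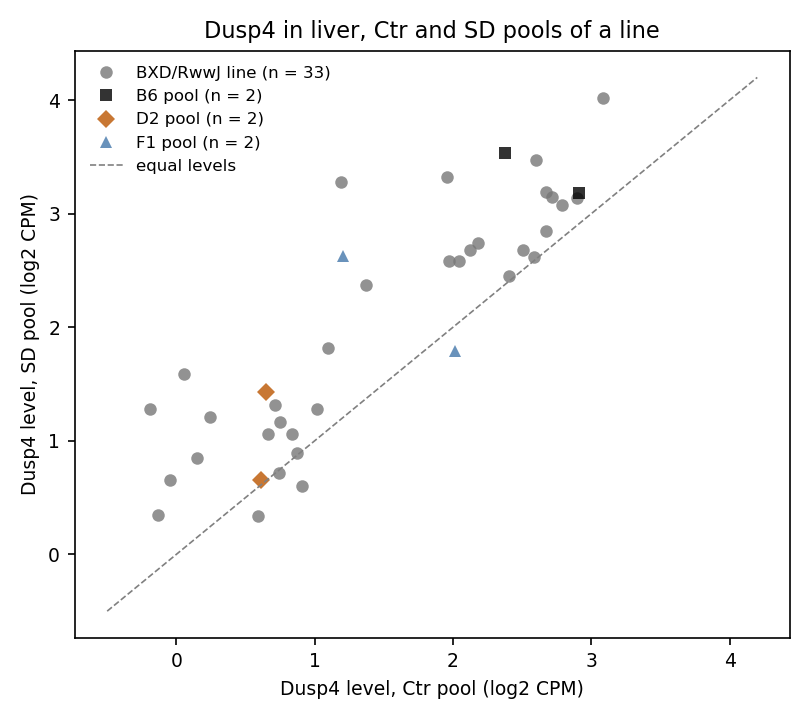
*Dusp4* level in liver (log2 CPM), with the Ctr pool of a line on the horizontal and its SD pool on the vertical axis. Points are the 33 BXD/RwwJ lines, the B6, D2 and F1 pools (2 each), and the dashed line marks equal levels. B6 pools lie at 2.38 or more on both axes and D2 pools at 1.43 or less, and 35 of 39 pools lie above the line.

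By level across the 33 BXD/RwwJ lines (mean of the Ctr and SD pool, genes with at least 10 reads on average), 8 of the 10 genes most like *Dusp4* in liver lie on chromosome 8, which holds 5.47% of the genes placed. They lie 0.651 to 9.18 Mb from it, measured between the midpoints of the genes. They include *Fut10* (r = -0.80), *Mtmr7* (-0.76), *Asah1* (0.75), *Adrb3* (-0.70) and *Gsr* (-0.70), so that some were low where *Dusp4* was high. *Tti2*, also among the 10, could not be placed. In cortex 0 of the 10 genes most like *Dusp4* lie on that chromosome. For *Dusp1* in liver 4 of 10 lie on chromosome 17, 0.498 to 8.31 Mb away (*C4a*, *Ggnbp1*, *Anks1* and *Hn1l*), where 4.94% of placed genes are, and for the other genes compared (*Dusp5* in liver was not, for its few reads) 0 or 1 of 10 share the chromosome. This likeness in level was looked at after the values of *Dusp4* were seen, and genotypes of the lines were not analysed here.

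By change across 37 strains in cortex, the genes most like the phosphatases included *Fos*, *Arc*, *Junb* and *Nr4a1*, which are known as early genes of neuronal activity. *Dusp6* was closest to *Fos* (r = 0.92), *Nr4a1* (0.88) and *Midn* (0.87), *Dusp1* to *Nr4a1* (0.86), *Arc* (0.86) and *Junb* (0.85), and *Dusp5* to *Arc* (0.72), *Trib1* (0.67) and *Fosl2* (0.67). *Dusp4* was closest to *Sgsm1* (0.84), the neurotrophin *Bdnf* (0.83) and *Fmnl1* (0.80), and *Spry2* to *Gpr3* (0.78), *Trib1* (0.76) and *Fos* (0.74). The other genes had as neighbours, for *Spry4*, *Sbk1* (0.84), *P4ha1* (0.83) and *Pdp1* (0.78), for *Spred1* *Tet3* (0.86), *Gfod1* (0.86) and *Pdp1* (0.85), and for *Spred2* *Synj2* (0.79), *Sik2* (0.78) and *Tet3* (0.78). These are the highest of 14749 genes, without a test. Without BXD89, left out after the data were seen, all but *Spred2* with *Sik2* (0.79) had a lower r. The values then ran from 0.60 (*Dusp5* with *Fosl2*) to 0.89 (*Dusp6* with *Fos*). *Spry2* with *Trib1* fell to 0.66 and *Spry4* with *Pdp1* to 0.68.

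In liver likeness was lower, and among the closest were *Bcl2l1* (0.66) and *Tob1* (0.64) for *Dusp1*, and *Snx18* (0.72), *Klhl25* (0.69) and *St3gal4* (0.66) for *Dusp6*. *Spred2* had *Glg1* (0.88), *Kdm2a* (0.88) and *Cpeb4* (0.87), which fell to 0.59, 0.59 and 0.56 without BXD70. *Spred1* was closest to *Hivep1* (0.66), and *Spry4* to *Mbd6* at 0.64, *Spry2* to *Ing5* (0.58) and *Dusp4* to *Zfp30* (0.58).

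The other genes of the pathway are read against all genes, of which 33.0% rose and 35.4% fell in cortex and 21.5% rose and 22.6% fell in liver. Of 6 other phosphatases of the family in cortex, 3 rose and 3 fell, with a median log2 fold change of 0.00: *Dusp2* rose by 0.31 (limma adjusted p = 0.00876), *Dusp7* by 0.17 and *Dusp10* by 0.12, while *Dusp16* (-0.23), *Dusp9* (-0.19) and *Dusp8* (-0.11) fell. The call of *Dusp9* was lost without any of 3 lines (BXD73b, BXD56 and BXD87, limma adjusted p up to 0.0627). In liver 1 of 5 listed rose, *Dusp8* (0.76, limma adjusted p = 3.5e-04), and 1 fell, *Dusp10* (-0.26). Of 9 other listed inhibitors of receptor tyrosine kinase and Ras signalling, 7 rose and 1 fell in cortex (median 0.13). The third SPRED gene, *Spred3*, rose most (0.69, limma adjusted p = 3.0e-41, 39 of 39 lines), followed by *Errfi1* (0.36), an inhibitor of the EGF receptor, and the ubiquitin ligase *Cbl* (0.29), and *Il17rd* (-0.28) fell. In liver 3 of 9 rose, *Lrig1* (0.21), *Errfi1* (0.17) and *Spry1* (0.15), and 0 fell.

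The kinases that these proteins act on showed shares near those of all genes in cortex. Of 17 listed genes of the Ras-Raf-MEK-ERK cascade in cortex 7 rose and 6 fell (median 0.00), with *Rps6ka2* (0.46), *Rps6ka3* (0.19) and *Grb2* (0.12) as the largest rises and *Rps6ka1* (-0.24) and *Mapk3* (-0.24), which encodes an ERK kinase, as the largest falls. In liver 3 rose, with *Sos1* (0.12) and *Grb2* (0.10) the most, and 8 fell, led by *Rps6ka3* (-0.32), *Rps6ka1* (-0.20) and *Shc1* (-0.15). Of 11 JNK and p38 kinases and their activators in cortex 3 rose and 4 fell, with the p38 kinase *Mapk11* at 0.58, *Map2k3* at 0.37 and *Mapk14* at 0.10, and *Mapk13* at -0.41, *Mapk9* at -0.15 and *Map2k7* at -0.09. In liver 2 of 10 rose (*Mapk14* 0.26 and *Map2k3* 0.09) and 6 fell, among them *Mapk13* (-0.57), *Mapk11* (-0.28, limma adjusted p = 0.0451, and 0.0562 with the line as a block) and *Mapk8* (-0.27). *Mapk11* kept its call in 20 of 39 fits that left out 1 line (limma adjusted p up to 0.101), and *Mapk13* lost its call without BD-F1 (limma adjusted p = 0.0548).

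Upstream, 12 of 21 listed growth factors and receptor tyrosine kinases rose and 5 fell in cortex (median 0.12). *Bdnf* rose by 1.15 (38 of 39 lines), the FGF receptor gene *Fgfr1* by 0.38 and *Vegfa* by 0.33, and *Ntf3* (-0.79), *Egf* (-0.63) and *Met* (-0.41) fell. In liver 4 rose (*Igf1r* 0.23, *Fgf1* 0.17 and *Egfr* 0.15 the most) and 4 fell (*Egf* -0.37, *Bdnf* -0.25 and *Vegfa* -0.18 the most), near the shares of all genes. The calls of *Egf* and *Bdnf* in liver were each lost without any of 4 single lines (limma adjusted p up to 0.0543 and 0.0638). Of the transcripts that ERK is known to induce, 12 of 14 listed rose in cortex (median 0.49), led by *Fos* (2.25), *Fosl2* (1.44) and *Egr1* (1.40), and *Etv1* (-0.20) fell. In liver 4 of 13 rose, with *Fos* (1.04), *Fosl2* (0.44) and *Epha2* (0.42) ahead, and the cyclin gene *Ccnd1* (-0.62) fell.

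Glucocorticoids are known to induce *Dusp1*, and their target genes rose in both tissues. Of 8 such transcripts 8 rose in cortex and 7 in liver, with medians of 0.72 in each. *Cdkn1a* (1.64), *Tsc22d3* (1.00) and *Fkbp5* (0.97) led in cortex, and *Zbtb16* (2.08), *Fkbp5* (1.30) and *Cdkn1a* (0.94) in liver. *Errfi1* is in this list and in that of the inhibitors. The part of these hormones in the changes of *Dusp1* was not tested.

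The 4 BXD/TyJ lines gave the same direction in cortex, with 8 of 8 genes higher in the SD pool of 4 of 4 lines. Their changes ran from 1.06 to 2.09 for *Dusp4*, 1.12 to 1.96 for *Dusp5*, 0.98 to 1.46 for *Spry4*, 0.91 to 1.35 for *Dusp6*, 0.76 to 1.67 for *Dusp1* and 0.32 to 0.53 for *Spry2*. In liver *Dusp1*, *Dusp4*, *Spry4* and *Spred1* were higher in 4 of 4, *Dusp5*, *Dusp6* and *Spred2* in 3 and *Spry2* in 1. *Dusp1* there ran from 0.18 to 2.07 and *Spred1* from 0.30 to 0.49.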

How the data were processed

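RNA-seq of pooled cortex and liver RNA was analysed as the log2 CPM values the authors deposited. The authors mapped single-end reads of stranded mRNA libraries to mm9 with STAR, counted them by strand on RefSeq genes with htseq-count, dropped low genes, and scaled with TMM factors from edgeR before the logarithm. A prior count close to 1 can be undone, and 100% of values then came out whole within 0.02 of a read. These reads gave depth and the voom alternative.

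SD and Ctr pools were compared with limma 3.58.1 in R 4.3.3 (lmFit, eBayes with trend), 39 against 39 and unpaired, with p-values adjusted over all genes of the tissue. The paper names voom weights, which were an alternative here. SD and Ctr pools come from the same lines: after the group means were taken off, same-line pools correlated with a median r of 0.614 in cortex and 0.475 in liver, at least 0.299 and 0.169, against -0.0197 and -0.0180 for other lines, so the line was also fitted as a block. Tissues were compared within lines. Strains (37, parental pools averaged) were the units of correlations and sign-flip tests in scipy 1.17.1. Scripts were tested on simulated data.

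The 8 genes, the pathway and marker lists and the tests were chosen with earlier results of these data known. All 8 are named in each tissue. Of each pathway list the 3 largest rises and 3 largest falls among genes past the threshold are named, of each gene the 3 genes most alike in change are the most that are given, and lines at the ends of a range are named. Some genes that this rule would name are not reported here. Promoters and exonic lengths came from RefSeq (GRCm38.p6) and GENCODE (mm9). Alternatives were other scalings, priors, filters, samples, eBayes without trend, voom, the block and leaving out each line.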

Additional observations from a re-analysis of the deposited data

Results flagged for a closer look

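For all 8 genes the change in liver differed from the change in cortex of the same pools (limma), and that test of the difference brought each of them here. Liver less cortex, the difference was -0.97 for *Dusp5*, -0.94 for *Dusp4*, -0.87 for *Spry4*, -0.82 for *Dusp6*, -0.50 for *Dusp1*, -0.47 for *Spry2*, -0.29 for *Spred2* and -0.16 for *Spred1*. All 8 passed in the same direction, as did 29.6% of all genes, and *Dusp4*, *Dusp5* and *Spry2* were counted on few reads in liver.

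Among the 4 BXD/TyJ lines, BXD05 stood far from the other lines in cortex for 2 of 48 groups of values looked at, and about 1 in 20 groups is picked out this way by chance. Its *Dusp4* level in Ctr was 1.98 log2 CPM, against 2.99 to 3.14 in the other lines. Its *Spred2* change was 1.02, against 0.48 to 0.57.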

How the results depend on the processing

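In cortex all 8 genes kept their rise and call under every alternative run, as did the 8 tissue differences. In liver the call of *Dusp4* in the unpaired fit, which keeps the spread between lines in its error, depended on the samples: its change was 0.56 in the 33 BXD/RwwJ lines (adjusted p = 0.0741) and 0.56 without BXD79, BXD85 and BXD101 (adjusted p = 0.0513, limma), for which fewer mice were pooled. With each line left out in turn it was 0.52 to 0.58 (limma adjusted p from 0.0346 to 0.0648), and the call was lost without BXD101, BXD55, BXD67, BXD71, BXD90 or DB-F1. Over all its alternatives the adjusted p ran from 4.28e-08 to 0.0741. Quantile normalization brought *Dusp5* (0.43, limma adjusted p = 0.0459) and *Spry2* (0.20, limma adjusted p = 0.0400) past the threshold in liver. The cause was not tested. Without BXD70, an alternative added after the data were seen, 3 liver pairs passed in place of 5. No change, tissue difference or correlation reversed its direction where it had passed its test. With the line as a replicate block 11359 genes passed in cortex and 7603 in liver, against 10191 and 6229 without it, and the pairing changed no call among the 8 genes. *Mapk11* in liver lost its call with the block (limma adjusted p = 0.0562). Liver libraries, the shallower ones, limit *Dusp4*, *Dusp5* and *Spry2* there.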
